A study of Mus musculus with 8 samples.

Results

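The genes described here are 32 genes of cholesterol and fatty acid synthesis and of its control, of 18939 genes in the counts table. They were taken by name from the table, with the transcript of the highest total count where a gene had more than 1, and all 32 were found. RNA was purified by Translating Ribosome Affinity Purification (TRAP), in which antibodies to GFP capture ribosomes that carry the EGFP-L10a protein together with the RNA bound to them. All mice had the OPRM1cre X EGFP-L10a genotype on a C57Bl/6J background and were 8 to 12 weeks old at the start of the experiment. Cre was placed behind the Oprm1 coding sequence, so that cells which use the gene of the mu opioid receptor (MOR) carry the tag, including any that used it earlier in life. The morphine group (4 libraries, replicates 3, 4, 7 and 8) drank morphine in 0.2% saccharin for 11 days, from 0.3 mg/ml at the start to 0.5 mg/ml, and the control group (4 libraries, replicates 1, 2, 5 and 6) drank saccharin alone. Replicates 1 to 4 are labelled male and replicates 5 to 8 female. By the study's account, each library is a pool of 2 dissections targeted at the paraventricular thalamus (PVT) from mice of the same sex. The p-values therefore measure the spread between pools. Control replicate 5, labelled female, had counts of Y-linked genes, at 28.7 to 35.8% of the mean of the male libraries. This goes against a pool of females alone for this library, and the reason was not tested.

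Cholesterol is built from acetyl-CoA through the mevalonate arm, which ends in farnesyl pyrophosphate, and then through squalene and lanosterol in the sterol arm. Fatty acids are built from acetyl-CoA and malonyl-CoA by acetyl-CoA carboxylase and fatty acid synthase, after which elongases and desaturases lengthen them and add double bonds. Most of these enzymes are controlled together by the SREBP transcription factors, which SCAP escorts from the endoplasmic reticulum when sterols are low and which INSIG proteins hold back when sterols are high. In the adult brain, which makes its own cholesterol behind the blood-brain barrier, oligodendrocytes and astrocytes are strong producers and neurons make less.

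Counts per library were between 31151106 and 47582947, and the members had between 95 counts (Idi1) and 23016 counts (Scd2) in a library. Values are given as CPM, which are counts scaled to a common library size with TMM factors, and genes with an adjusted p under 0.05 in edgeR's quasi-likelihood test are said to be called. Over the whole table edgeR called 37 genes (0.195%), and the median log2 fold change of all genes was 0.0088. In this bulk RNA, fewer cells of a type and less RNA per cell cannot be told apart. The 10 markers of thalamic neurons summed to 2836 to 3742 CPM in the control and 2012 to 3566 CPM in the morphine libraries. All 10 had a log2 fold change below 0 (median -0.28), beside 48.6% of all genes. Gbx2 was at -0.69, Necab1 at -0.67 and the receptor gene Oprm1 at -0.62. Markers of choroid plexus, a tissue bordering the PVT, summed to 35.9 to 108 CPM in the control and 129 to 401 CPM in the morphine libraries, and the groups did not overlap. Without Ttr, the most abundant of these markers in the morphine libraries, the sums were 34.5 to 63.2 CPM and 51.8 to 99.2 CPM and overlapped, while 8 of the 13 markers taken singly did not overlap and were higher in morphine. Markers of telencephalic pyramidal neurons (9 of 10 found) summed to 263 to 525 CPM and 414 to 804 CPM. Singly, 2 of them did not overlap and were higher in morphine. Neurod6 had means of 5.13 CPM in the control and 50.8 CPM in the morphine libraries (log2 fold change 3.32), and Neurod2 of 14.8 and 76.7 CPM (2.38). Cux2 did not overlap either and was lower in morphine (-0.32). Markers of oligodendrocytes summed to 136 to 1341 CPM and 638 to 1690 CPM, those of astrocytes to 219 to 394 CPM and 249 to 420 CPM, and those of microglia to 1.08 to 6.12 CPM and 2.25 to 3.58 CPM. None of these marker genes was called.

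As compared to the control group, the morphine group had 0 of the 32 members called by edgeR, where 0.195% of all genes were called and 0.0317% were called as lower. DESeq2 called 2 members, fatty acid synthase (Fasn) and mevalonate diphosphate decarboxylase (Mvd), both lower in morphine, where it called 3.29% of the genes it tested, 1.17% as lower. At an unadjusted edgeR p under 0.05, 8 members were lower (Fasn, Mvd, Hmgcs1, Lss, Acaca, Pmvk, Mvk and Stard4), beside 5.31% of all genes, and 0 were higher, beside 6.79% of all genes. The 4 control and the 4 morphine libraries did not overlap for 4 members (Fasn, Mvd, Lss and Acaca), all lower in morphine, beside 3.21% of all genes. No member had all its morphine libraries above its control libraries, beside 3.34% of all genes. Of the 32 members, 18 had a log2 fold change below 0 (48.6% of all genes did), with a median of -0.06.

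The promoters of Fasn, Mvd, Lss and Hmgcs1, the members with the lowest edgeR p, are shown because these genes are known SREBP targets and were all below the control mean in morphine. Each sequence is the RefSeq promoter window on GRCm38.p6, from 250 bases before to 50 bases after an annotated start of the gene, read 5′ to 3′ on the gene's strand. For Fasn and Lss this start lies 619 and 40 bases inside the whole gene span given with their values. The windows are chr11:120824498-120824797 (minus strand) for Fasn, chr8:122443373-122443672 (minus strand) for Mvd, chr10:76531355-76531654 (plus strand) for Lss and chr13:119690101-119690400 (plus strand) for Hmgcs1. Capitals mark matches on either strand to TCACNCCAC (like the sterol regulatory element that SREBP binds), CCAAT (the NF-Y box), GGGCGG (the GC box of Sp1) and CACGTG (an E-box).
Fasn: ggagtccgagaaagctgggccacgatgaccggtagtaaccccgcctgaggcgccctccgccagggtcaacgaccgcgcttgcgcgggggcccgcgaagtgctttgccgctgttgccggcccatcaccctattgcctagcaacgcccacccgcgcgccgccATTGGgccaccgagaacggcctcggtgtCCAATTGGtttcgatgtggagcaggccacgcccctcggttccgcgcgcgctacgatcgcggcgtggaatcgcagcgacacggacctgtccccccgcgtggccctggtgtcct
Mvd: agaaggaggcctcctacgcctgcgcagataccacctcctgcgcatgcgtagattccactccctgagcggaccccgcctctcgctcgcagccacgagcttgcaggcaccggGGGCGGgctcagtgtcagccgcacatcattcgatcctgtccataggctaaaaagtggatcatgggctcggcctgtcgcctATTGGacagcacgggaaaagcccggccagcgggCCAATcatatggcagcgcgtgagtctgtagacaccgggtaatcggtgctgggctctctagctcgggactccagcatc
Lss: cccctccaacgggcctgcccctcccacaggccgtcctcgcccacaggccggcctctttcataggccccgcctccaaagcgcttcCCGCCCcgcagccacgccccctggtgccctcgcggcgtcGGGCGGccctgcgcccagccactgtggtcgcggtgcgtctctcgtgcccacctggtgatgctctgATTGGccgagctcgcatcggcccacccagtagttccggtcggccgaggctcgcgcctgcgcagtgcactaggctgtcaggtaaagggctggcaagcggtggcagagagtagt
Hmgcs1: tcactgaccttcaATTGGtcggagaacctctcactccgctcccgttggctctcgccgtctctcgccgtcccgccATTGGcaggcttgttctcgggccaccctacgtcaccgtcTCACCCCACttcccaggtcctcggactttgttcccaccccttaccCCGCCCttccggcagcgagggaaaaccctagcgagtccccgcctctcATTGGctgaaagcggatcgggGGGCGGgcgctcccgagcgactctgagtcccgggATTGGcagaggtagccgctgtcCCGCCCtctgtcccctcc
The Fasn window held 3 CCAAT boxes, of which a pair overlaps in inverse orientation. The Mvd window held 2 CCAAT boxes and 1 GC box, and the Lss window 1 CCAAT box and 2 GC boxes. The window of Acaca, the member with the next lowest p, begins far inside its gene span and held none of the 4 motifs. The Hmgcs1 window held 1 match like the sterol regulatory element, 4 CCAAT boxes and 3 GC boxes.

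Promoter windows were found for 25 of the 32 members (33 windows, as some genes have several starts). CCAAT was in 21 of the 33 windows (63.6%), beside 37.4% of all 32851 windows in the table. GGGCGG was in 24 of 33 (72.7%), beside 35.7% of all windows, and CACGTG was in 7 of 33 (21.2%), beside 7.15%. TCACNCCAC was in the Hmgcs1 window and in no other member window, beside 1.24% of all windows. The CCAAT box was found both for members that were lower in morphine, such as Fasn and Mvd, and for members with values above the control, such as Elovl5 and Dhcr7. These are matches of letters and not measured binding.

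Per kilobase of transcript, Hmgcs1, the cytosolic HMG-CoA synthase at the entry of the mevalonate arm, had the highest mean level of the members, at 93.9 CPM per kb in the control and 74.0 CPM per kb in the morphine group. Acly, which makes cytosolic acetyl-CoA from citrate, followed in the control group with 60.8 CPM per kb, then Scd2 with 51.2 and Fasn with 49.4 CPM per kb. In the morphine group Scd2 stood second with 64.5 CPM per kb, above Acly with 51.4 and Fasn with 34.9 CPM per kb. Idi1, the isopentenyl diphosphate isomerase, was lowest with 1.35 CPM per kb in the control group. The transcription factor gene Srebf2 (26.1 CPM per kb) stood far above its relative Srebf1 (1.58 CPM per kb) in the control group. In the control group all libraries of Hmgcs1 were above all those of Acly, while the ranges of Acly, Scd2 and Fasn overlapped each other. In morphine replicate 8, Scd2 (86.7 CPM per kb) stood above Hmgcs1 (68.2 CPM per kb).

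**Figure D1:**
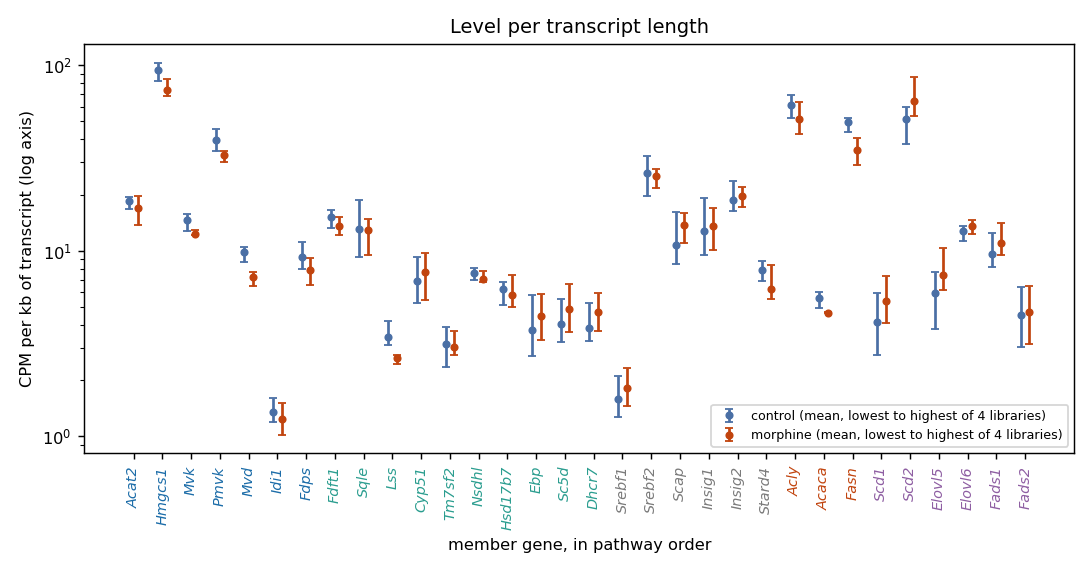
CPM per kb of transcript (log axis) for the 32 members in pathway order, with the mean and the lowest to highest of 4 libraries in the control and the morphine group. Hmgcs1 has the highest mean level (93.9 CPM per kb in the control group) and Idi1 the lowest (1.35 CPM per kb), and for most members the ranges of both groups overlap.

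The mevalonate arm had all 7 of its genes below 0 in log2 fold change, with a median of -0.24 and a range of -0.46 to -0.13, beside 48.6% of all genes below 0 and a median over all genes of 0.0088. Of the 7, 4 were lower at an unadjusted edgeR p under 0.05, beside 5.31% of all genes, and 0 were called, beside 0.195%. With a marker score in the model, Idi1 was above 0 for 3 of 4 scores (0.043 with choroid plexus, 0.11 with telencephalic and 0.016 with thalamic markers) and Acat2 for 1 (0.091, telencephalic), while Pmvk was at -0.06 and Fdps at -0.05 with the telencephalic score. The heat map shows this arm as a mostly blue block in the morphine libraries, and the order of the log2 fold changes with their errors is plotted beside it.

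Mvd (chromosome 8, 122433596 to 122443422 on GRCm38) decarboxylates mevalonate diphosphate to isopentenyl diphosphate. Its level was 18.5, 17.9, 15.4 and 17.5 CPM in control replicates 1, 2, 5 and 6, and 11.4, 12.9, 13.5 and 12.7 CPM in morphine replicates 3, 4, 7 and 8. Every morphine library lay below every control library. The mean was 17.3 ± 1.36 CPM in the control libraries and 12.6 ± 0.905 CPM in the morphine libraries (SD, n = 4 each), a difference of -27.1% (log2 fold change -0.46, SE 0.11). The adjusted p was 0.131 with edgeR and 0.00685 with DESeq2, and the exact two-sided permutation p was 0.0286, the smallest that 4 libraries against 4 allow (0.029). None of the Mvd transcript's windows of 50 bases was shared with another gene.

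Hmgcs1 (chromosome 13, 119690351 to 119708260) was at 359, 284, 329 and 330 CPM in the control libraries and at 293, 237, 259 and 236 CPM in the morphine libraries. Control replicate 2 lay below morphine replicate 3, and the other control libraries lay above all morphine libraries. The means were 325 ± 31.0 and 256 ± 26.7 CPM (SD, n = 4 each), and the difference of -21.2% did not pass the adjusted threshold (log2 fold change -0.34, SE 0.11, edgeR's adjusted p = 0.229, exact permutation p = 0.0571). An antisense gene, Gm48342, shares 13.6% of the transcript's 50-base windows, and it is not stated whether the counts use the strand.

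Both kinases of the arm also had unadjusted p-values under 0.05. Pmvk, the phosphomevalonate kinase, was at 41.0 to 54.2 CPM in the control and 36.1 to 41.3 CPM in the morphine libraries (log2 fold change -0.27, SE 0.11, edgeR's adjusted p = 0.348). Mvk, the mevalonate kinase, was at 21.2 to 26.4 CPM and 20.1 to 21.6 CPM (log2 fold change -0.24, SE 0.10, edgeR's adjusted p = 0.375). For each, the groups overlapped only at their edges, by the highest morphine and the lowest control libraries.

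The remaining genes of the arm were Acat2, the cytosolic thiolase (log2 fold change -0.13), Idi1 (-0.13) and Fdps, the farnesyl diphosphate synthase (-0.23), with edgeR's adjusted p between 0.572 and 0.803. Their counts are uncertain, since other genes' transcripts hold 82.0% of the 50-base windows of Fdps, 45.9% of those of Acat2 (the near copy Acat3) and 30.5% of those of Idi1.

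**Figure D2:**
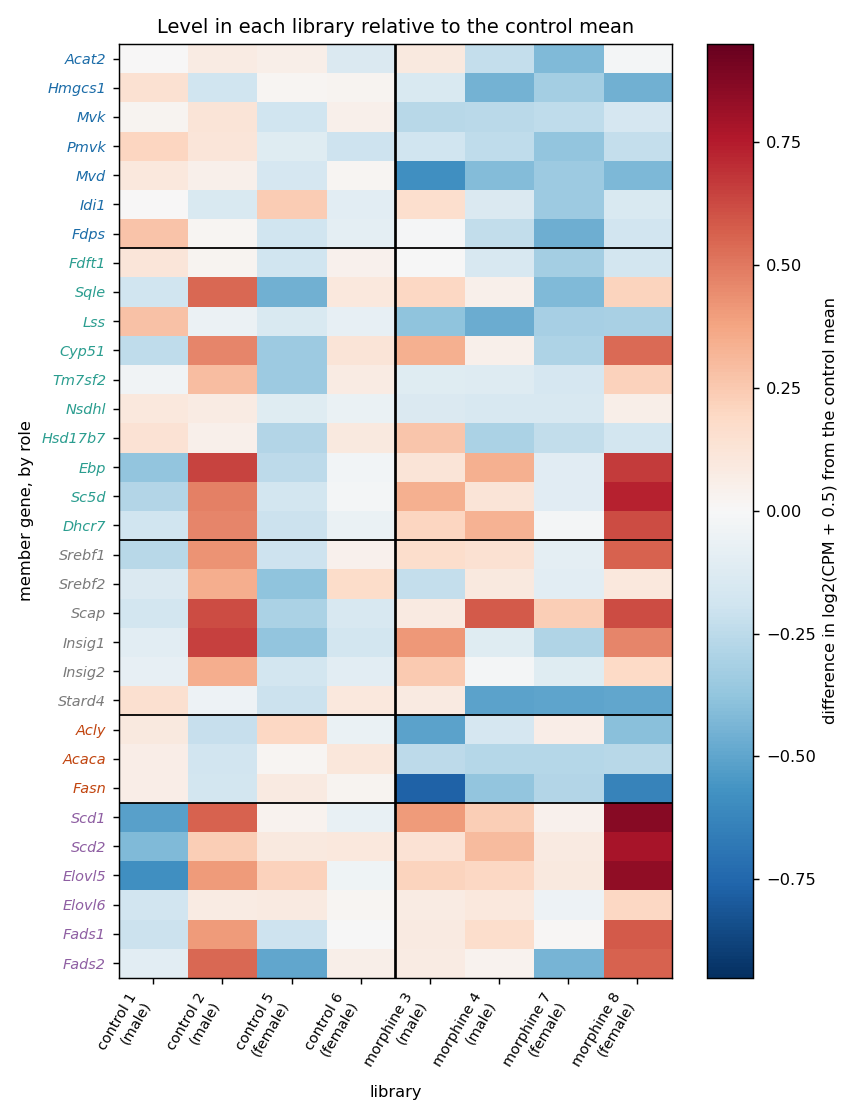
Level of each of the 32 members in each of the 8 libraries as the log2 ratio to the mean of the 4 control libraries, with members grouped by role and control libraries on the left. The median of the 3 de novo fatty acid genes lies below the control mean in each of the 4 morphine libraries (-0.51, -0.27, -0.27 and -0.40), although Acly alone lies above it in morphine replicate 7, and control replicate 2 and morphine replicate 8 are high in the desaturases and elongases (medians 0.40 and 0.68).

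The sterol arm had values of both signs. Of its 10 genes, 6 had a log2 fold change below 0 (48.6% of all genes did) and 4 above 0, with a median of -0.04 and a range of -0.39 to 0.29. Lss, the lanosterol synthase that closes the sterol rings, was the only gene of the arm with an unadjusted edgeR p under 0.05, where 5.31% of all genes were lower and 6.79% higher at this p.

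Lss (chromosome 10, 76531565 to 76557139) was at 19.5, 15.3, 14.4 and 15.1 CPM in the control libraries and at 12.2, 11.4, 12.8 and 12.8 CPM in the morphine libraries. The groups did not overlap, and control replicate 1 stood above the rest. The mean was 16.1 ± 2.31 CPM in the control libraries and 12.3 ± 0.675 CPM in the morphine libraries (SD, n = 4 each), a difference of -23.6% (log2 fold change -0.39, SE 0.12). The adjusted p with edgeR was 0.241 and the exact permutation p was 0.0286.

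The steps around Lss showed other values. Fdft1, the squalene synthase, had a log2 fold change of -0.16 (SE 0.10), with 30.7% of its 50-base windows in transcripts of other genes, and Sqle, the squalene epoxidase, one of -0.02 (SE 0.21) with 25.5 to 51.5 CPM in the control and 26.1 to 40.8 CPM in the morphine libraries. Cyp51, the lanosterol demethylase directly after Lss, was at 20.7 to 36.6 CPM and 21.5 to 38.5 CPM (log2 fold change 0.16, SE 0.21). The genes of the last steps had the highest values of the arm, with Dhcr7, which makes cholesterol in its final reduction, at 0.29 (SE 0.19), Sc5d, a sterol desaturase, at 0.28 (SE 0.21) and Ebp, a sterol isomerase, at 0.24 (SE 0.25). With 1 library left out these values were 0.16 to 0.48, 0.099 to 0.47 and 0.074 to 0.53. With the choroid plexus score in the model they were -0.13, -0.21 (SE 0.33) and -0.43 (SE 0.39). This score is hard to tell apart from the groups, so the change of sign decides nothing. Of the reductases and dehydrogenases in between, Tm7sf2 was at -0.06, Nsdhl at -0.10 and Hsd17b7 at -0.10. Apart from Lss, edgeR's adjusted p for genes of the arm was between 0.568 and 0.987, and each of these genes had a log2 fold change within 2 standard errors of 0.

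**Figure D3:**
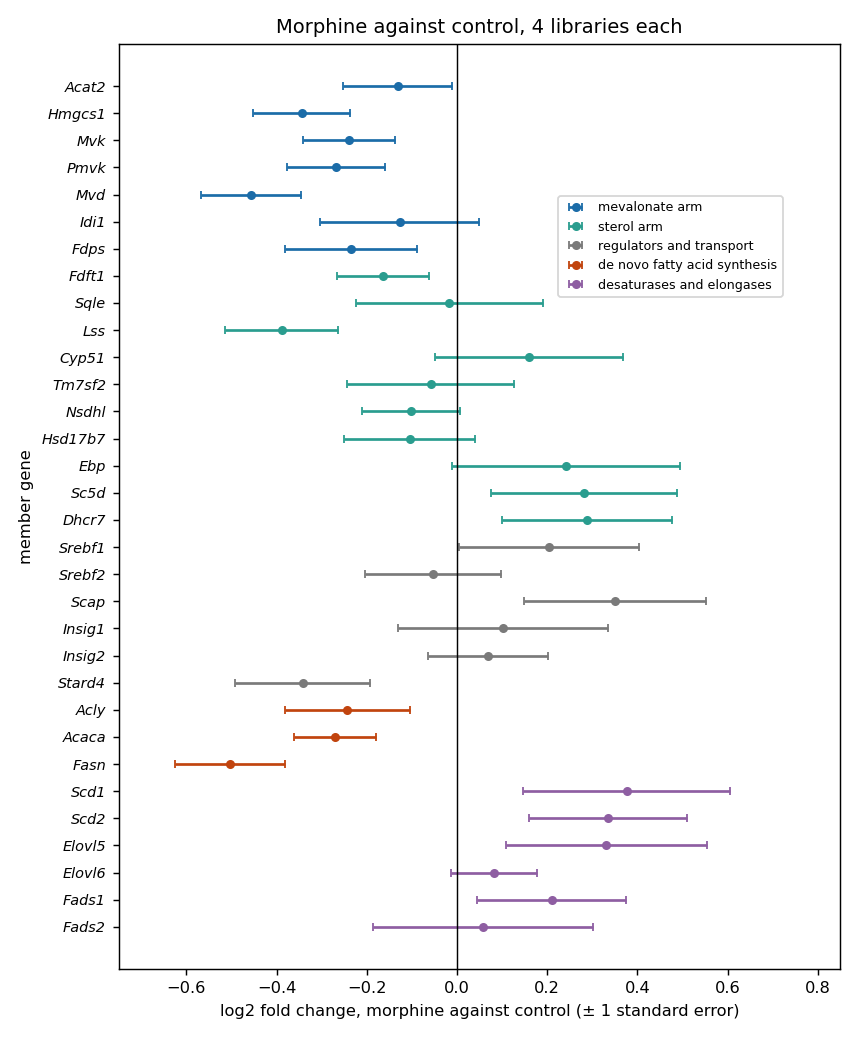
Log2 fold change of the 32 members, morphine against control (x axis, 4 libraries each), with bars of 1 standard error from edgeR and colours for the roles. All 7 genes of the mevalonate arm and all 3 of de novo fatty acid synthesis lie below 0, with Fasn lowest (-0.50), and the 6 desaturases and elongases lie above 0, with Scd1 highest (0.38).

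The genes of the SREBP control system had log2 fold changes near 0 or with wide errors. Srebf2, whose product drives the cholesterol genes, was at 99.8 to 165 CPM in the control and 111 to 140 CPM in the morphine libraries (log2 fold change -0.05, SE 0.15). Srebf1, whose product drives the fatty acid genes, had a log2 fold change of 0.20 (SE 0.20). Insig1, itself an SREBP target, was at 25.5 to 52.1 CPM and 27.1 to 45.9 CPM (0.10, SE 0.23), and Insig2 had a log2 fold change of 0.07 (SE 0.13). The edgeR adjusted p of these genes lay between 0.687 and 0.911.

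Scap was at 38.9, 68.1, 35.7 and 39.7 CPM in the control libraries and at 46.7, 66.1, 51.9 and 67.8 CPM in the morphine libraries. Control replicate 2 was the highest library of all, and the other 3 control libraries were below all morphine libraries. The log2 fold change was 0.35 (SE 0.20, edgeR's adjusted p = 0.536), and without control replicate 2 it was 0.61 (SE 0.14, edgeR's adjusted p = 0.0776). It was below 0 with the thalamic (-0.063) and the choroid plexus score (-0.036) in the model. Scap shares 13.1% of its 50-base windows with a gene model on the other strand.

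Stard4, which carries cholesterol between membranes and is an SREBP2 target, was at 44.7, 38.7, 34.9 and 43.1 CPM in the control libraries and at 42.7, 28.0, 28.2 and 28.3 CPM in the morphine libraries. Morphine replicate 3 stood within the control range, and the other 3 morphine libraries were below it. The means were 40.3 ± 4.44 and 31.8 ± 7.25 CPM (SD, n = 4 each; log2 fold change -0.34, SE 0.15, edgeR's adjusted p = 0.392). Without morphine replicate 3 the log2 fold change was -0.52 (SE 0.11, edgeR's adjusted p = 0.0796), and with the thalamic marker score in the model it was -0.028.

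The plan held the 9 fatty acid genes as a single role, with 6 above 0 in log2 fold change, 3 below and a median of 0.08. They are split here into de novo synthesis and the desaturases and elongases. The split, which was not in the plan, runs along the sign of the values, so the signs of its 2 parts are no separate result. De novo fatty acid synthesis had the lowest median log2 fold change of the 5 roles so formed. All 3 genes were below 0 in log2 fold change (median -0.27), 2 of them with an unadjusted edgeR p under 0.05 (5.31% of all genes were lower at this p) and with groups that did not overlap (3.21% of all genes, lower). In each of the 4 morphine libraries the median of the 3 genes was below that of every control library, at -0.51, -0.27, -0.27 and -0.40 against 0.06, -0.19, 0.08 and 0.03 (log2 ratio to the control mean).

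Fasn (chromosome 11, 120805958 to 120825166), which makes palmitate, had the lowest log2 fold change and the lowest edgeR p of the 32 members. Its level was 518, 440, 524 and 504 CPM in the control libraries and 291, 382, 409 and 319 CPM in the morphine libraries. All morphine libraries were below all control libraries, with control replicate 2 the lowest control and morphine replicate 7 the highest morphine library. The mean was 497 ± 38.6 CPM in the control libraries and 350 ± 54.5 CPM in the morphine libraries (SD, n = 4 each), a difference of -29.5% (log2 fold change -0.50, SE 0.12). The adjusted p was 0.130 with edgeR and 0.0124 with DESeq2, and the exact permutation p was 0.0286. With 10361 to 21934 counts per library, counting error is small beside the spread between libraries.

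Acaca (chromosome 11, 84129635 to 84401651), the acetyl-CoA carboxylase that makes malonyl-CoA, was at 52.5, 44.2, 50.9 and 54.2 CPM in the control libraries. In the morphine libraries it was at 42.2, 41.5, 41.6 and 41.8 CPM, a span of under 1 CPM. The mean was 50.5 ± 4.38 CPM in the control libraries and 41.8 ± 0.303 CPM in the morphine libraries (SD, n = 4 each), a difference of -17.1% (log2 fold change -0.27, SE 0.09, edgeR's adjusted p = 0.261, exact permutation p = 0.0286). A gene model, Gm5182, holds 55.4% of its 50-base windows, so the count of Acaca is uncertain.

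Acly was at 286, 229, 306 and 255 CPM in the control libraries and at 188, 240, 279 and 203 CPM in the morphine libraries. Its groups overlapped, and the log2 fold change was -0.24 (SE 0.14, edgeR's adjusted p = 0.528, exact permutation p = 0.171). With 1 library left out it was -0.38 to -0.16, and with the choroid plexus score in the model it was -0.035.

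**Figure D4:**
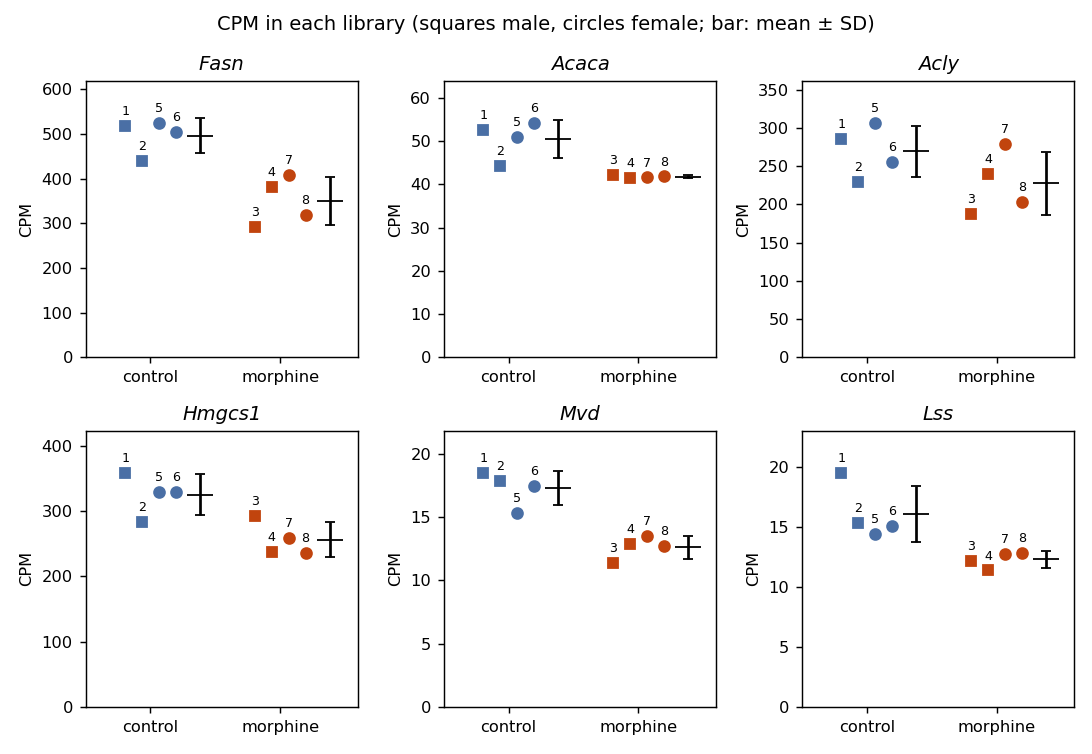
CPM of Fasn, Acaca, Acly, Hmgcs1, Mvd and Lss in each library (y axis from 0), with control and morphine libraries side by side. Squares are male and circles female libraries, and bars show the mean ± SD of 4 libraries. For Fasn the 4 morphine libraries (291 to 409 CPM) lie below the 4 control libraries (440 to 524 CPM), while for Acly the groups overlap (188 to 279 CPM against 229 to 306 CPM).

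The desaturases and elongases, which modify fatty acids made in the cell or taken from the diet, had log2 fold changes of the other sign. All 6 were above 0, with a median of 0.27 and a range of 0.06 to 0.38, while 48.6% of all genes were below 0. None had an unadjusted edgeR p under 0.05 (adjusted p 0.489 to 0.948), where 6.79% of all genes were higher at this p. With 1 library left out the log2 fold change was 0.19 to 0.60 for Scd1, 0.16 to 0.41 for Scd2, 0.12 to 0.48 for Elovl5 and 0.068 to 0.37 for Fads1, in each case highest without control replicate 2 and lowest without morphine replicate 8. Without control replicate 2, the edgeR adjusted p was 0.151 for Scd1, 0.261 for Scd2 and 0.211 for Fads1. With the choroid plexus score in the model, which is hard to tell apart from the groups, all 6 were below 0. Scd2, the main stearoyl-CoA desaturase of the brain, was at 205, 324, 293 and 295 CPM in the control libraries and at 304, 340, 291 and 473 CPM in the morphine libraries. Control replicate 1 and morphine replicate 8 were the extremes, and the middle libraries of both groups overlapped. The means were 279 ± 51.3 and 352 ± 83.3 CPM (SD, n = 4 each; log2 fold change 0.33, SE 0.18, edgeR's adjusted p = 0.489).

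Scd1, the other desaturase of saturated fatty acids, was at 13.3 to 28.6 CPM in the control and 19.7 to 35.3 CPM in the morphine libraries (log2 fold change 0.38, SE 0.23). Elovl5, an elongase of polyunsaturated fatty acids, was at 10.5 to 21.3 CPM and 17.0 to 28.9 CPM (0.33, SE 0.22). Fads1 and Fads2, the desaturases of polyunsaturated fatty acids, had log2 fold changes of 0.21 (SE 0.17) and 0.06 (SE 0.24). Elovl6, which lengthens palmitate, varied least of the 6, with 67.0 to 81.0 CPM in the control and 73.8 to 87.2 CPM in the morphine libraries (0.08, SE 0.09).

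Within a group, 2 libraries set the upper end for many members. Control replicate 2 was the highest control library for 18 of the 32 members, among them Sqle, Cyp51, Scap, Srebf2 and Scd2, and the lowest for 5 (Hmgcs1, Idi1, Acly, Acaca and Fasn). Morphine replicate 8 was the highest morphine library for 19 members and the lowest for Hmgcs1. Control replicate 5 was the lowest control library for 17 members, and morphine replicate 7 the lowest morphine library for 21. With control replicate 2 and morphine replicate 8 both left out, the groups did not overlap for 7 lower members (Hmgcs1, Mvk, Mvd, Lss, Nsdhl, Acaca and Fasn), beside 9.21% of all genes in these 6 libraries. They did not overlap for 4 higher members (Dhcr7, Scap, Scd1 and Fads1), beside 9.92% of all genes. In these 6 libraries edgeR called no gene of the whole table.

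Oligodendrocyte markers, which include the myelin gene Mbp, were summed in each library because cells of this type make much lipid. The sum was 136, 505, 1341 and 845 CPM in control replicates 1, 2, 5 and 6, and 638, 900, 891 and 1690 CPM in morphine replicates 3, 4, 7 and 8. The lowest sum was in control replicate 1, which also had the lowest control level of Scd1, Scd2, Elovl5, Elovl6 and Fads1. The highest was in morphine replicate 8, which had the highest morphine level of these genes. Control replicate 5, with the second highest sum, had Scd2 at 293 CPM, below control replicate 2. With the mean log2 level of these markers as a covariate, the log2 fold change was 0.12 for Scd2, 0.05 for Elovl5 and 0.17 for Scd1, that of Fasn was -0.50 and that of Mvd -0.41. Some other lower members were nearer 0 in this fit than without the covariate, with Lss at -0.27, Hmgcs1 at -0.29, Pmvk at -0.17, Stard4 at -0.23 and Fdps at -0.10. Others were not, such as Idi1 at -0.15 and Acat2 at -0.13. Control replicate 1 was also the highest control library for Hmgcs1, Pmvk, Mvd, Fdps, Lss and Stard4.

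**Figure D5:**
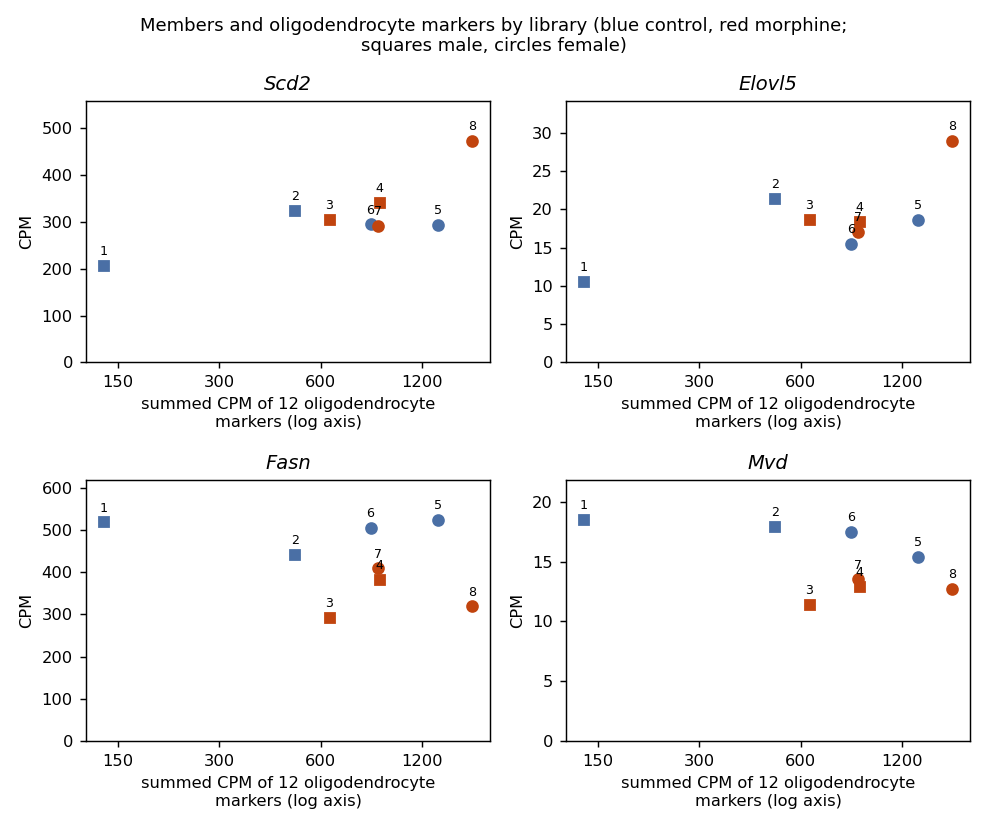
CPM of single members (y axis from 0) against the summed CPM of 12 oligodendrocyte markers (log x axis) in the 8 libraries, blue for control and red for morphine, squares male and circles female. Control replicate 1 has the lowest marker sum (136 CPM) and the lowest Scd2 (205 CPM), and morphine replicate 8 the highest of both (1690 and 473 CPM). Fasn is at 440 to 524 CPM in the blue and 291 to 409 CPM in the red points.

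The scores of the choroid plexus, telencephalic and thalamic markers were put in the model in turn as well. With the choroid plexus score, 31 of 32 members had a log2 fold change below 0, where the median of all genes was -0.015. Of the members, 1 was lower at an unadjusted edgeR p under 0.05, beside 2.11% of all genes. The summed choroid plexus markers did not overlap between the groups, so this fit can hardly part the score from morphine, and its signs decide nothing. Fasn was at -0.43 (SE 0.21) and Mvd at -0.46 (SE 0.20), and the 6 desaturases and elongases were below 0 as well, with Scd2 at -0.26 (SE 0.23). With the telencephalic score, Fasn was at -0.64 and Mvd at -0.53, and with the thalamic score at -0.61 and -0.50. Hmgcs1 was at -0.16, -0.27 and -0.13 and Lss at -0.19, -0.29 and -0.24 with the choroid plexus, telencephalic and thalamic score.

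Other genes of lipid synthesis and handling were read from a list of 34, of which all 34 were found. edgeR called 0 of them (0.195% of all genes), 25 had a log2 fold change above 0 and 9 below (48.6% of all genes were below), and the median was 0.24. At an unadjusted edgeR p under 0.05, 6 were higher and 2 lower, beside 6.79% and 5.31% of all genes. The groups did not overlap for 5 higher and 2 lower genes, beside 3.34% and 3.21% of all genes.

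The 2 lower genes feed the same pathways. Aacs, which makes acetoacetyl-CoA in the cytosol for lipid synthesis, was at 50.1, 39.3, 43.1 and 48.2 CPM in the control libraries and at 32.2, 36.4, 37.1 and 28.0 CPM in the morphine libraries (log2 fold change -0.44, SE 0.12, edgeR's adjusted p = 0.169). Mid1ip1, which promotes the polymerization and activity of acetyl-CoA carboxylase, was at 73.1, 65.6, 66.3 and 65.0 CPM and at 56.4, 47.8, 55.9 and 56.5 CPM (-0.32, SE 0.09, edgeR's adjusted p = 0.188). For both genes all morphine libraries lay below all control libraries.

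Among the 5 higher genes, Abca1, which exports cholesterol from cells, was at 7.01 ± 1.08 CPM in the control and 10.2 ± 1.68 CPM in the morphine group (SD, n = 4 each; log2 fold change 0.54, SE 0.16, edgeR's adjusted p = 0.203). Mylip, which marks lipoprotein receptors for degradation and like Abca1 is a target of liver X receptors, had a log2 fold change of 0.37 (SE 0.13). Soat1, which esterifies cholesterol, was at 0.39 (SE 0.14), the elongase gene Elovl7 at 0.66 (SE 0.22) and Thrsp, a relative of Mid1ip1, at 0.55 (SE 0.20). Their edgeR adjusted p was between 0.203 and 0.292.

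For the comparison of the sexes, condition was kept in the model. edgeR called 0 of the 32 members, where 0.00528% of all genes were called, and 0 had an unadjusted p under 0.05, beside 3.1% of all genes. The lowest p was that of Pmvk (log2 female against male -0.20, SE 0.10, edgeR's unadjusted p = 0.0698). The interaction of sex and morphine called 0 members, where 0% of all genes were called, and 0 members had an unadjusted p under 0.05, beside 1.72% of all genes. These counts moved when single libraries were left out. The interaction then had an unadjusted edgeR p under 0.05 for 4 members without control replicate 1 (Ebp, Scap, Insig1 and Fads1), beside 4.45% of all genes, and for 2 without morphine replicate 7 (Insig1 and Fads2), beside 3.64%. The sexes then differed at an unadjusted edgeR p under 0.05 for 4 members without morphine replicate 8 (Pmvk, Sqle, Insig1 and Fads2, lower in females), beside 4.75% of all genes, 2 without control replicate 2 (Scd2 and Elovl5, higher in females), beside 2.73%, and 1 without morphine replicate 4 (Hsd17b7), beside 5.58%. No member was called.

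Fasn was at 479 CPM in the male and 514 CPM in the female control libraries, and at 337 and 364 CPM in the morphine libraries, so that the log2 ratio was -0.51 in males and -0.50 in females (interaction 0.0096, SE 0.27). In both sexes all morphine libraries were below all control libraries for 5 members (Pmvk, Mvd, Lss, Acaca and Fasn), beside 5.18% of all genes. The sign was the same in both sexes for 23 members, 13 of them lower and 10 higher. Each sex has 2 libraries a group, and control replicate 5 is among the female libraries, so that differences between the sexes could be seen only where large.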

How the data were processed

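TRAP-Seq libraries from gross dissections aimed at the PVT (4 control, 4 morphine), which also held markers of other cell types, were read as a single table of raw counts per RefSeq transcript, deposited by the authors. The processing notes name mm10 and DESeq2. The study describes Salmon quantification, and the tool that made this table is not given in the sources used here. A directional kit was used, but whether the counts use the strand is not stated. The table has 24488 transcript rows and 18939 genes. Each gene was represented by its row of highest total, and all genes were kept.

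Groups came from the labels. Counts were tested with edgeR 4.0.16 (R 4.3.3; TMM, quasi-likelihood test, condition in the model) and adjusted by Benjamini-Hochberg over all genes, with DESeq2 1.42.0 as an alternative. Single members also had an exact permutation test over 70 arrangements on log2(CPM + 0.5). Tests were tried on simulated data. Marker scores are means of log2 CPM (prior count 2). Other alternatives were RLE factors, filterByExpr, sex in the model, the sum over rows and each library left out. The joint omission of a control and a morphine library and the marker scores were added after seeing the data. CPM per kb used RefSeq transcript lengths, and shared windows were found among GENCODE transcripts on GRCm38. Counting error limits only the lowest members, and reads are not independent molecules.

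The members and lists were chosen with earlier results of these data known. All members are accounted for, with values in every library for those called, those whose groups did not overlap and the 5 of lowest p; Acly, Scap, Stard4 and Scd2 are given in every library as well, chosen after their values were seen. Of the other lipid genes, those called, those not overlapping and the 3 of lowest p are named.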

Additional observations from a re-analysis of the deposited data

Results flagged for a closer look

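In 6 of 64 groups of 4 libraries (32 members, 2 conditions), the highest or lowest library stood apart from the other 3 by Dixon's test. Chance flags about 1 in 20 groups. Morphine replicate 8 stood apart for Tm7sf2 (5.41 CPM), Nsdhl (17.0 CPM) and Elovl5 (28.9 CPM), above the other morphine libraries in each. Control replicate 2 stood apart for Scap (68.1 CPM) and Insig2 (64.1 CPM), above the other control libraries. Morphine replicate 3 stood apart for the cholesterol carrier Stard4 (42.7 CPM), above the other morphine libraries and within the control range.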

How the results depend on the processing

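No member was called by edgeR under any alternative, and DESeq2 called 2. Of the 32 members, 12 kept a log2 fold change below 0 under all 18 alternatives, Fasn (-0.64 to -0.42) and Mvd (-0.53 to -0.41) among them, and the other 20 reversed under at least 1. The number of genes called over the whole table was 502 with DESeq2, 14 with filterByExpr, 110 with sex in the model, 22 with the sum over rows, 0 without control replicate 2 and morphine replicate 8, 1 with the telencephalic marker score and 0 with each of the oligodendrocyte, choroid plexus and thalamic scores. With 1 library left out it was 0 to 77 (77 without control replicate 6 or morphine replicate 3, 20 without control replicate 5, 11 without morphine replicate 7, 1 without control replicate 1, and 0 without morphine replicate 4 or 8). Where 0 genes were called, unadjusted p-values under 0.05 numbered 2586 without both libraries, 1278, 648 and 1156 with the 3 scores, and 1697 and 1664 without morphine replicate 4 and 8.

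Members lower at an unadjusted p under 0.05 numbered 5 without control replicate 2 and morphine replicate 8, 4 with the oligodendrocyte, 1 with the choroid plexus, 3 with the telencephalic and 2 with the thalamic score, and 5 to 9 with 1 library left out (5 without control replicate 1 or morphine replicate 4). Of all genes, 5.38% were lower without both libraries, 3.04%, 2.11%, 3.52% and 3.05% with the 4 scores, and 3.55 to 7.46% with 1 library left out. Higher members numbered 3 without both libraries (8.53% of all genes) and 0 to 7 with 1 left out (7 without control replicate 2, beside 11.1% of all genes). Members whose groups did not overlap numbered 7 lower and 4 higher without both libraries (9.21% and 9.92% of all genes), and 4 to 7 lower (7 without morphine replicate 3, beside 6.51% of all genes) and 0 to 4 higher (4 without control replicate 2, beside 8.56%) with 1 left out. Fewer libraries separate more genes, so these counts are not compared with those of all 8.

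The choroid plexus score and the groups could hardly be told apart, so that reversals with this score decide nothing. Log2 fold changes that reversed with it were those of Idi1 (0.043), Cyp51 (-0.33), Ebp (-0.43), Sc5d (-0.21), Dhcr7 (-0.13), Srebf1 (-0.30), Scap (-0.036), Insig1 (-0.12), Insig2 (-0.0075), Scd1 (-0.21), Scd2 (-0.26), Elovl5 (-0.28), Elovl6 (-0.10), Fads1 (-0.22) and Fads2 (-0.51). With the thalamic score they were Idi1 (0.016), Hsd17b7 (0.17), Ebp (-0.13), Scap (-0.063), Elovl6 (-0.0087) and Fads2 (-0.11). With the telencephalic score they were Acat2 (0.091) and Idi1 (0.11), and with the oligodendrocyte score Hsd17b7 (0.0090). Without control replicate 2 and morphine replicate 8 they were Sqle (0.13) and Srebf2 (0.026). With 1 library left out, values spanned -0.17 to 0.20 for Sqle, -0.19 to 0.060 for Tm7sf2, -0.18 to 0.071 for Srebf2, -0.033 to 0.37 for Insig1, -0.0034 to 0.20 for Insig2 and -0.15 to 0.28 for Fads2. Cyp51 (0.020 to 0.34) and Srebf1 (0.055 to 0.38) kept their sign but moved widely. So did Idi1 (-0.24 to -0.044), Acat2 (-0.22 to -0.065) and Fdps (-0.32 to -0.15). The cause was not tested. No paired analysis was possible because the groups share no replicate numbers.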
